A study of Homo sapiens with 6 samples.

Results

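ATAD3A and ATAD3B are neighbouring paralogs on the short arm of human chromosome 1 that encode mitochondrial ATPases. They were taken as the entries of the expression table that carry these 2 gene symbols, which gave 2 of 1273 genes, and their levels were read in all 6 RNA-seq libraries. The libraries came from Rh30, an established cell line of alveolar rhabdomyosarcoma (aRMS), a childhood soft tissue cancer with features of skeletal muscle. Of the libraries, 3 were from stable Rh30 cells induced to express pannexin 1 (PANX1), which forms channels in the plasma membrane, and 3 were from the GFP control cells that carry the vector without PANX1. Both kinds of culture carried the CymR repressor and constitutive GFP, were kept in geneticin and puromycin, and received cumate, which releases the repressor, at 30 µg/mL for 48 h before RNA extraction. Each group was 1 stable line, so the construct and the line that carries it cannot be told apart. The study's methods call the 3 cultures of a group biological replicates, but the labels do not say how they were separated, so p-values refer to the spread between these libraries only.

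The table holds only genes that the authors had called between PANX1 and GFP cells, and the pair was singled out on the same contrast. Its difference between the groups is therefore given as a description. A model fitted over the whole table supplies the background share of calls, and no evidence was taken from the calls of the pair or of any other gene. Because every gene was chosen on this contrast, an adjusted p does not hold its stated error rate here. Levels are in FPKM, fragments scaled to transcript length and library size, which can be compared between genes of different length. The table does not hold the reads behind each FPKM, so no counting interval was given.

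ATAD3A is an AAA+ ATPase, a class of ring-forming enzymes that use ATP to remodel proteins. It is anchored in the inner mitochondrial membrane, reaches towards the contact sites with the outer membrane, and is known for roles in mitochondrial DNA nucleoids, cristae and the handling of cholesterol. ATAD3B is a primate paralog that associates with ATAD3A and is known from embryonic and tumor cells, and a related gene, ATAD3C, lies beside both. ATAD3C had 0 entries in the table and its level was not analysed here.

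On the hg19 build, the table places ATAD3B (XLOC_000025) at chr1:1407164-1431582 and ATAD3A (XLOC_000026) at chr1:1447523-1470067, both on the plus strand with 15940 bases between them. GENCODE v44lift37, on the same build, gives the order ATAD3C, ATAD3B, ATAD3A. Its longest protein-coding transcript of ATAD3A has 16 exons, 2612 bases and 1902 coding bases, and that of ATAD3B has 16 exons, 4098 bases and 1944 coding bases. The coding sequences are close copies of each other, which bears on how reads can be assigned. Of 1758 coding bases that aligned, 75 differed, giving 95.7% identity, and the longest identical run was 288 bases. For comparison, ATAD3C was 93.4% identical to ATAD3A over 1201 aligned bases and 93.7% identical to ATAD3B over 1229.

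The start of the coding sequence, in the first coding exon, is shown because it is nearly the same in both genes. Over these 120 bases 2 differ, and they are in capitals. The stretches lie at chr1:1447649-1447768 and chr1:1407265-1407384 on the plus strand.
ATAD3A: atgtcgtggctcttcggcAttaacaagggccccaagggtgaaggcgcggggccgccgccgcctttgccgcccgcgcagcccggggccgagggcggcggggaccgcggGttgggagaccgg
ATAD3B: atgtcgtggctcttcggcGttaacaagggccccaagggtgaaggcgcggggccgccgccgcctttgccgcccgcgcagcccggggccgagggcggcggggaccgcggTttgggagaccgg
The 120 bases within 1 exon that hold the most differences between ATAD3A and ATAD3B are shown next. They were not compared with ATAD3C. They lie at chr1:1463093-1463212 in ATAD3A and chr1:1425655-1425774 in ATAD3B, plus strand, and the 20 differing bases are in capitals.
ATAD3A: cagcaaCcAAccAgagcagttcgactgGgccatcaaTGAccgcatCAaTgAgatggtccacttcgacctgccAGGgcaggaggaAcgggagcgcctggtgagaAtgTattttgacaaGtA
ATAD3B: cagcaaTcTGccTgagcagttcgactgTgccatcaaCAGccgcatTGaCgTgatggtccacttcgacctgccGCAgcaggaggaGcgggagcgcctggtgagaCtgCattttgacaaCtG
The coding sequences part at their ends. The last 60 coding bases of ATAD3A before the stop codon (chr1:1469390-1469449) align to chr1:1430949-1431008 of ATAD3B with 7 differences, in capitals, and ATAD3B goes on for 186 coding bases, of which the next 60 (chr1:1431009-1431068) are shown in lower case.
ATAD3A: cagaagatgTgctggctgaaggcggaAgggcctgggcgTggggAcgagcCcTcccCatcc
ATAD3B: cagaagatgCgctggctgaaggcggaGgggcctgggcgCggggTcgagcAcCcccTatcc
ATAD3B, next 60 bases: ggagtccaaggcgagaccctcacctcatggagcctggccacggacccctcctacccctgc

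Differences were unevenly spread along the coding sequence. In ATAD3A, 144 coding bases, from position 283 to 426 counted from 1 at the start codon, had no partner in this ATAD3B transcript. Among bins of 60 bases the most differences, 12, were in positions 1501 to 1560. When the longest annotated transcripts (for ATAD3B, 1 that retains an intron) were cut into all stretches of 100 bases, 82.5% of those of ATAD3A and 89.8% of those of ATAD3B were found in no transcript of the other ATAD3 genes. At 50 bases the shares were 63.6% and 80.4%. The read length and the treatment of reads that fit both genes are not given in the sources used here, so a part of each FPKM may have been divided between the paralogs.

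**Figure D1:**
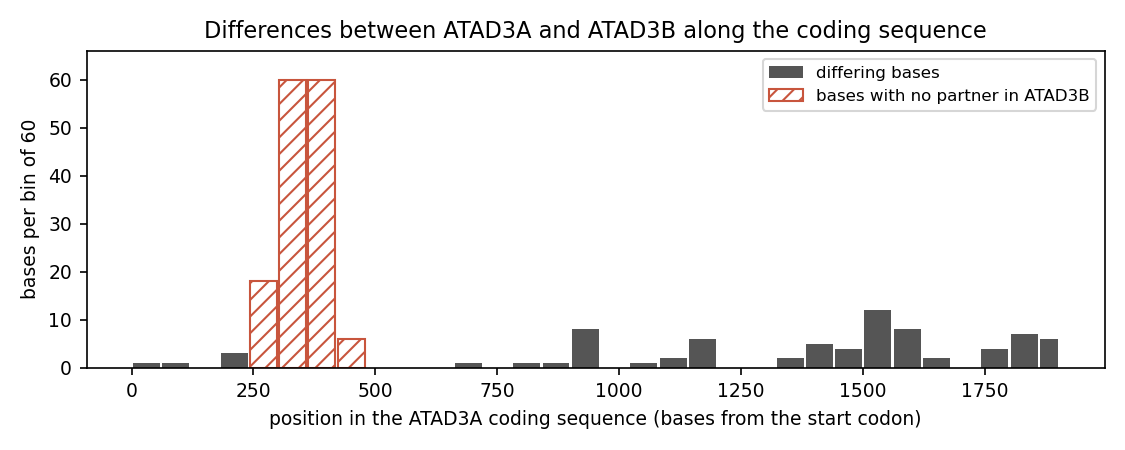
Number of differing bases (dark bars) and of bases with no partner in ATAD3B (hatched bars) in bins of 60 bases, by position in the ATAD3A coding sequence in bases from the start codon. Differences are few in the first part and reach 12 per bin in positions 1501 to 1560, while 144 bases near the start have no partner.

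The sequences just upstream of each gene are shown to extend the comparison of the paralogs beyond their coding parts. They are the 250 bases before the most upstream start of each gene, which is that of the table for ATAD3A and that of GENCODE for ATAD3B, at chr1:1447273-1447522 for ATAD3A and chr1:1406895-1407144 for ATAD3B, read from the GRCh37 genome on the plus strand, with CpG dinucleotides in capitals.
ATAD3A: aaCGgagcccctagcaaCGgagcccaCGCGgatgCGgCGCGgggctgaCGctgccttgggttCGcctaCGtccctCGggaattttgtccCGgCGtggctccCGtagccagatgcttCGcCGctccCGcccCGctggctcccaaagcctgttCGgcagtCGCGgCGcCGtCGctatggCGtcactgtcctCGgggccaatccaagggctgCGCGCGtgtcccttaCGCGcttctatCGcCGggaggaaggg
ATAD3B: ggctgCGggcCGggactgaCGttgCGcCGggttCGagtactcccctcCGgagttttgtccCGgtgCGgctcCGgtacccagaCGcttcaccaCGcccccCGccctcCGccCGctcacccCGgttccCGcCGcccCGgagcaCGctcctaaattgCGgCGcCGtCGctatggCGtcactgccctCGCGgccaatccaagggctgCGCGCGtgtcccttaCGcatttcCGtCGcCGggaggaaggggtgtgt
These runs held 33 CpG in ATAD3A and 34 in ATAD3B. They aligned over 208 bases, of which 178 were identical (85.6%). In windows of 300 bases around the start of 19802 genes, 250 before it and 50 after it, each paralog had 41 CpG against a median of 21, and 90.9% of windows had fewer. The letters of 3 motifs were searched on both strands of these windows. The GC box GGGCGG was found 1 time in ATAD3A and 3 times in ATAD3B, and is in 57.9% of all windows. The CCAAT letters were found 1 time in each, and are in 35.3% of windows. The E-box CACGTG, in 8.53% of windows, was in neither, which says only that these letters are not there.

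PANX1 itself was read first as a check of the labels. Its FPKM was 37.8, 35.3 and 28.1 in GFP replicates 1, 2 and 3, and 124, 184 and 123 in PANX1 replicates 1, 2 and 3. As deposited, all PANX1 libraries were above all GFP libraries, as labelled. The means were 33.7 ± 5.02 and 144 ± 35.2 (SD, n = 3), a ratio of 4.26 and a log2 ratio of 2.09. After the median-of-ratios scaling described below, the log2 ratio was 1.16. The groups then overlapped, with PANX1 replicate 3 below GFP replicates 1 and 2.
The cell type could be checked in part. Of 16 markers of the skeletal muscle lineage, 6 were in the table, among them desmin (DES), the intermediate filament of muscle, which lay between 214 and 571 FPKM in the 6 libraries. FGFR4, a growth factor receptor, lay between 43.7 and 247, and CDH15, a cadherin of myoblasts, between 20.05 and 120. The other 3 were low, with LMOD3, a regulator of actin filaments in muscle, at 0.339 to 1.88 FPKM, KLHL31 at 0.605 to 3.95 and APOBEC2 at 0.127 to 1.92. The first 3 had a higher mean in PANX1 cells, with log2 ratios of 0.71, 1.29 and 1.46, and the last 3 a lower one, with -1.39, -1.32 and -1.54. After median-of-ratios scaling DES turned to -0.32 and the others kept their direction, but not their size. FGFR4 and CDH15 fell to 0.13 and 0.20, and LMOD3, KLHL31 and APOBEC2 went to -2.21, -2.10 and -2.22. The 10 markers outside the table, MYOD1 and MYOG among them, and all 8 markers of leukocytes, endothelium, epithelium and fibroblasts were not analysed here.

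ATAD3A, the paralog with the higher level in every library, was at a low FPKM in the GFP cells and higher in each PANX1 library. Its FPKM was 2.96, 3.05 and 3.29 in GFP replicates 1, 2 and 3, and 6.05, 3.89 and 19.6 in PANX1 replicates 1, 2 and 3. The GFP libraries lay close together, and PANX1 replicate 3 stood far above the other 2 PANX1 libraries. The groups did not overlap, with 0.60 FPKM between the highest GFP and the lowest PANX1 library. The means were 3.10 ± 0.173 FPKM in GFP and 9.84 ± 8.51 in PANX1 cells (SD, n = 3), a ratio of 3.18 and a log2 ratio of 1.67. Against the GFP mean, PANX1 replicates 1, 2 and 3 were at log2 0.96, 0.33 and 2.66. Without PANX1 replicate 3 the log2 ratio was 0.68.

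ATAD3B was lower and followed the same order among the PANX1 libraries. Its FPKM was 0.897, 1.15 and 0.712 in GFP replicates 1, 2 and 3, and 1.80, 1.30 and 9.65 in PANX1 replicates 1, 2 and 3. Again the highest value was in PANX1 replicate 3 and the groups did not overlap, but only 0.155 FPKM lay between GFP replicate 2 and PANX1 replicate 2. The means were 0.918 ± 0.217 FPKM in GFP and 4.25 ± 4.68 in PANX1 cells (SD, n = 3), a ratio of 4.63 and a log2 ratio of 2.21. The SD of the PANX1 libraries was larger than their mean. Against the GFP mean, PANX1 replicates 1, 2 and 3 were at log2 0.97, 0.50 and 3.39, and without PANX1 replicate 3 the log2 ratio was 0.75. In bulk RNA a change in the number of cells that express a gene and a change in RNA per cell cannot be told apart.

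The order of the paired genes over the PANX1 libraries was not that of PANX1. PANX1 replicate 2 had the most PANX1 RNA, 184 FPKM, and the lowest ATAD3A and ATAD3B of the 3 PANX1 libraries. As deposited, PANX1 replicates 1 and 3 had nearly equal PANX1, 124 and 123 FPKM, while ATAD3A was 6.05 in the former and 19.6 in the latter. After median-of-ratios scaling (size factors 1.17 and 2.52) they were no longer nearly equal, and replicate 3 had the least PANX1 of the PANX1 libraries. ATAD3A was then 5.19 in replicate 1 and 7.77 in replicate 3. With 3 libraries this is a description only.

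**Figure D2:**
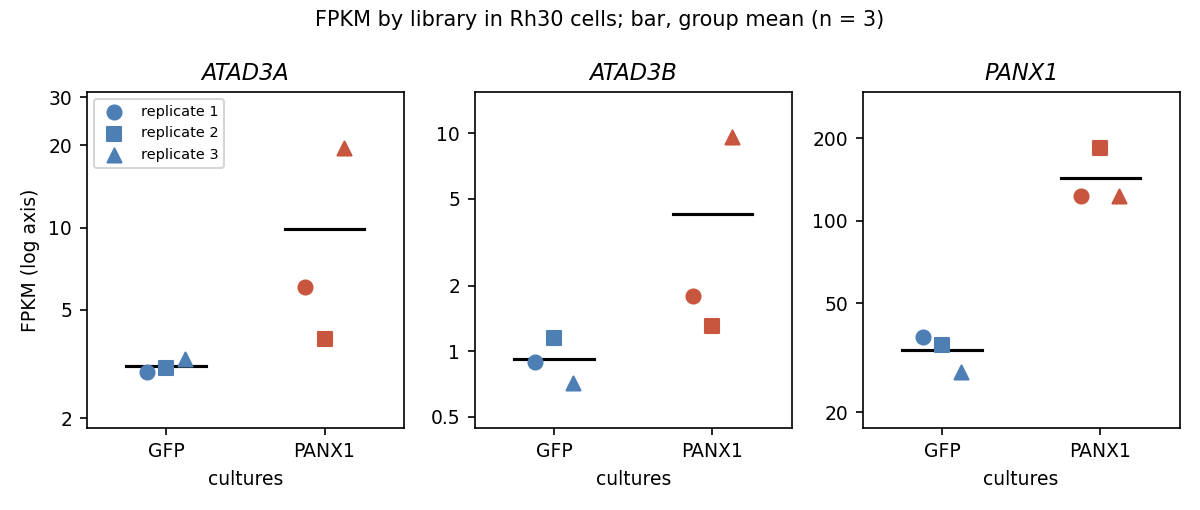
FPKM of ATAD3A, ATAD3B and PANX1 on log axes, 1 panel per gene, by library (points, the shape giving the replicate number) in GFP and PANX1 cultures, with bars at the group means (n = 3). PANX1 replicate 3 is highest for ATAD3A (19.6) and ATAD3B (9.65) but not for PANX1 (123). The groups do not overlap in any panel as deposited, while after median-of-ratios scaling they overlap for each of these genes, PANX1 included.

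Most genes of the table also had a higher mean in PANX1 cells, so the pair was read against it. This held for 1108 of 1273 genes, and the median log2 ratio was 1.23. Scaling the libraries by median-of-ratios size factors brought this median to 0.043, and the log2 ratio of ATAD3A to 0.31 and that of ATAD3B to 0.72. Neither direction changed, but the groups then overlapped in both genes, except that without PANX1 replicate 2 they did not overlap for ATAD3A. After this scaling ATAD3A was at 4.50 ± 0.260 in GFP and 5.57 ± 2.03 in PANX1 cells, and ATAD3B at 1.34 ± 0.349 and 2.21 ± 1.41 (SD, n = 3). The size factors came from the table's own genes, most of which were higher in PANX1 cells. The scaling thus also removes any true difference that most of them share. As deposited, the log2 ratio of ATAD3A was 0.44 above the table's median and larger than that of 79.3% of its genes, and that of ATAD3B was 0.98 above it and larger than 93.2%.

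Both genes had a log2 ratio of means above 1 (0.99 and 1.00 for ATAD3A and ATAD3B from group medians), as did 72.0% of the table, and both were higher in PANX1 cells with no overlap between the groups, as was 82.0% of the table. The table was also fitted with limma, a linear model with a spread shared across genes, on log2(FPKM + 1), which understates the change of low genes. It called 33.5% of the table higher and 0.707% lower in PANX1 cells at a Benjamini-Hochberg adjusted p under 0.05. Among the members, 1 of 2 was called higher, ATAD3B with a change of 1.10 (SE 0.364), and ATAD3A with a change of 1.12 (SE 0.518) was not. The pair was chosen on this contrast, so these calls stand beside the background and support nothing. The call of ATAD3B was lost with median-of-ratios scaling and without a trend in the spread, where the table had 0 genes called higher. It was also lost without GFP replicate 1, 2 or 3, where the table had 8, 14 and 51 genes called higher. ATAD3A was called without PANX1 replicate 2 or 3, where the table had 716 and 994. Without a trend the SE was 0.504 for ATAD3B and 0.471 for ATAD3A. The smaller SE of ATAD3B given above thus comes from the trend of the spread with level.

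The libraries of PANX1 cells placed the pair differently in the table. In PANX1 replicate 2, 24.0% of the table's genes had a lower log2 value against the GFP mean than ATAD3A, and 37.5% a lower one than ATAD3B. In replicate 1 these shares were 71.8% and 72.6%, and in replicate 3 they were 85.2% and 95.8%. The table's median in replicates 1, 2 and 3 was 0.77, 0.61 and 1.87. Thus ATAD3A and ATAD3B lay below the median gene in replicate 2 and above it in the other 2 PANX1 libraries.

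PANX1 replicate 3 was set against the mean of PANX1 replicates 1 and 2, with no GFP library involved. ATAD3A was log2 1.98 higher there and ATAD3B 2.64, while the median gene was 1.17 higher. Of the table, 91.8% lay below ATAD3A and 98.7% below ATAD3B in this difference. The transcripts of both are rich in G and C, with 65.2% for ATAD3A and 62.3% for ATAD3B, against a median of 61.0% in the table and 49.1% over 19807 annotated protein-coding genes. Across 1154 genes of the table, the difference of replicate 3 was larger at higher GC content (Spearman rho = 0.66, a description across genes measured in the same libraries). After a correction of each library for GC content, the limma change was 0.15 for ATAD3A and 0.30 for ATAD3B, and neither was called. The median change of the genes in the corrected fit was 0.18, against 0.89 in the table without the correction, so the fall is not particular to the pair. The correction takes 49.1% GC as its reference, below the table's median, and the size of the fall depends on that choice. The correction also removes any true difference that follows GC content, and the part of GC content in the result was not tested.

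The ratio of the paralogs within a library does not depend on how libraries are scaled. ATAD3A over ATAD3B was 3.30, 2.66 and 4.62 in GFP replicates 1, 2 and 3, and 3.37, 2.99 and 2.03 in PANX1 replicates 1, 2 and 3. The highest ratio was in a GFP library and the lowest in a PANX1 library, and the groups overlapped. The mean log2 ratio was 1.78 ± 0.400 in GFP and 1.45 ± 0.382 in PANX1 cells (SD, n = 3). The difference of -0.33 was smaller than the SD of either group, and was -0.11 without PANX1 replicate 3 and -0.51 without GFP replicate 2. With 1 FPKM added to each value it was 0.02, in the other direction. ATAD3B made up 23.3%, 27.3% and 17.8% of the summed FPKM of the pair in GFP replicates 1, 2 and 3, and 22.9%, 25.1% and 33.0% in PANX1 replicates 1, 2 and 3. ATAD3A was thus the larger part in each library. The summed FPKM, which is less affected by how reads are divided between the copies, was 3.85, 4.20 and 4.004 in GFP and 7.84, 5.19 and 29.2 in PANX1 libraries.

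**Figure D3:**
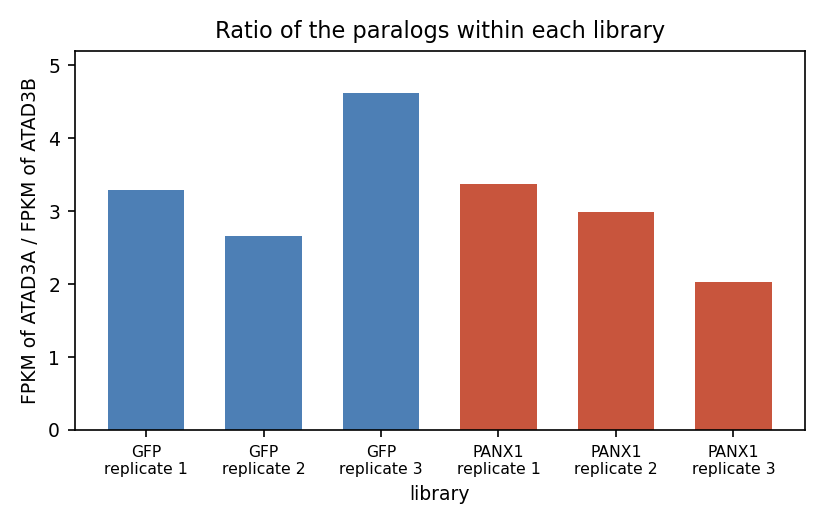
FPKM of ATAD3A divided by FPKM of ATAD3B in each of the 6 libraries, with GFP in blue and PANX1 in red. The ratios run from 2.03 in PANX1 replicate 3 to 4.62 in GFP replicate 3, and the 2 groups overlap.

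The genes around the pair were then described. Of 43 other protein-coding genes annotated within 500 kb, 9 were in the table, and all 9 had a higher mean in PANX1 cells with no overlap between the groups and their highest value in PANX1 replicate 3. In the table, 1108 of 1273 genes had a higher mean, 82.0% were higher with no overlap, and 1081 had their highest value in that library. After median-of-ratios scaling the groups did not overlap in 1 neighbour that was higher, DVL1, and 1 that was lower, CPSF3L, against 210 higher and 235 lower of 1273 in the table. As deposited, the median log2 ratio of the neighbours was 1.74, against 1.23 in the table, and 6 of 9 were called higher in limma, against 33.5% of the table. Without GFP replicate 1, 2 or 3 the calls fell to 0, 0 and 2 of 9, and those in the table to 8, 14 and 51 of 1273. With median-of-ratios scaling, with the GC correction described above and without a trend in the spread, 0 neighbours were called, and the table had 0, 9 and 0 genes called higher. After median-of-ratios scaling, where the table's median log2 ratio was 0.043, 7 of 9 were still higher, AGRN by only 0.012. ACAP3 and CPSF3L were lower, at log2 -0.046 and -0.15. By the limma change under the same scaling 6 of 9 were higher.

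The nearest was MIB2, a ubiquitin ligase of the Notch pathway that lies 80.7 kb beyond ATAD3A. Its FPKM was 0.0842, 0.405 and 0.324 in GFP replicates 1, 2 and 3, and 0.633, 0.688 and 4.28 in PANX1 replicates 1, 2 and 3. It was low throughout and highest in PANX1 replicate 3, with a log2 ratio of 2.78, the largest of the 9 as deposited. After the GC correction its limma change was -0.26, against a median of 0.18 in the table, and its sign depends on the reference GC of the correction. On the other side AURKAIP1, a protein of the small mitochondrial ribosomal subunit, lies 96.3 kb before ATAD3B. Its FPKM was 15.5, 20.1 and 20.2 in GFP replicates 1, 2 and 3, and 41.4, 28.5 and 116 in PANX1 replicates 1, 2 and 3. It had the order of ATAD3A over the PANX1 libraries, replicate 3 above 1 above 2, at a higher FPKM in every library, and its log2 ratio was 1.74.

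Farther off, DVL1, a transducer of Wnt signals, had a log2 ratio of 1.83, and CPSF3L, the endonuclease of the Integrator complex, had the smallest, 1.02. AGRN, which encodes the organizer of neuromuscular synapses agrin, was at 1.18 and ACAP3, a regulator of ARF GTPases, at 1.20. SDF4, a calcium-binding protein of the Golgi, was at 1.43 and C1orf159 at 1.96. ISG15, an interferon-induced modifier protein 457 kb away, was at 0.308, 0.457 and 1.11 FPKM in GFP replicates 1, 2 and 3, and 1.79, 1.48 and 7.96 in PANX1 replicates 1, 2 and 3, a log2 ratio of 2.58. The genes called were ISG15, C1orf159, SDF4, DVL1, AURKAIP1 and MIB2. The transcripts of the 8 neighbours with a GC value held 63.4% to 69.1% GC, all above the median of the table. After the GC correction 4 of 8 had a limma change above 0 (ISG15, SDF4, DVL1 and AURKAIP1) and 4 below it (AGRN, C1orf159, ACAP3 and MIB2). The median change in the table was then 0.18. The correction takes 49.1% GC as its reference, and these signs depend on that choice. The part of GC content was not tested.

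**Figure D4:**
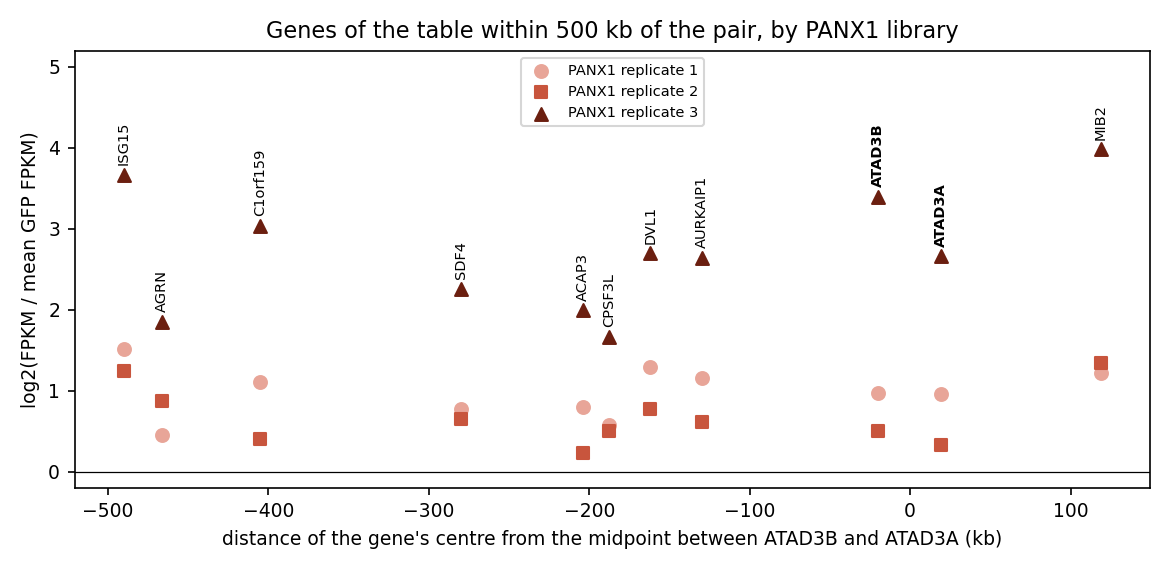
Log2 of FPKM over the mean GFP FPKM in PANX1 replicates 1, 2 and 3 (points) for ATAD3A, ATAD3B and the 9 genes of the table within 500 kb, by distance in kb of the gene's centre from the midpoint between the pair. All points lie above 0 as deposited and replicate 3 is highest for each gene, while after median-of-ratios scaling the group means of ACAP3 and CPSF3L are lower in PANX1 cells.

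Genes that work with ATAD3 proteins, or belong to the same class, were counted in 7 lists of 177 genes in all. Of these, 19 were in the table. A higher mean in PANX1 cells was seen in 17 and a lower one in 2, and in all 19 the groups did not overlap. In the table, 1108 of 1273 genes had a higher mean, and 82.0% were higher and 11.9% lower with no overlap, so these counts lay near the background. After median-of-ratios scaling the groups did not overlap in 4 listed genes that were higher (POLRMT, FASTK, FDX1L and FIS1) and 3 that were lower (SHMT2, ATAD2 and ATAD5), against 210 and 235 of 1273 in the table. The median log2 ratio was 1.35, against 1.23 in the table. In limma 8 of 19 were called higher, against 33.5% of the table, and 0 lower, with 0 lower also at an unadjusted p under 0.05. The authors had called all of these genes on the same contrast, so these calls and the adjusted p-values given next are descriptions and support nothing. Without GFP replicate 1, 2 or 3 the calls higher fell to 0 of 19 (8, 14 and 51 of 1273 in the table), and without PANX1 replicate 1 to 5 (300 in the table). With median-of-ratios scaling, with the GC correction and without a trend in the spread, 0 listed genes were called, and the table had 0, 9 and 0 genes called higher, so the single calls given next are lost under each of these settings (C19orf70 and FDX1L had no GC value and were not in the corrected fit). Without PANX1 replicate 3 there were 16 called higher and 2 lower, where the table had 994 and 146. After median-of-ratios scaling 12 were higher and 7 lower, where the table's median log2 ratio was 0.043. This scaling moves all genes of a library alike, and SHMT2, HSD17B10, PEX6, SCAP and TOMM40 changed direction. The genes named after scaling were named after their values were seen.

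The nucleoid and mitochondrial RNA list had 5 of 40 genes in the table, all 5 with a higher mean, and 3 were called higher. Beside this count and those of the later lists stands the share of the table called higher, 33.5%. The 3 called genes are named next. They were FASTK, the founding member of a family of mitochondrial RNA regulators, with a log2 ratio of 1.85 (adjusted p = 0.0282 in limma), LONP1, the matrix protease that binds mitochondrial DNA, with 1.46 (0.0398), and HSD17B10, a subunit of mitochondrial RNase P, with 1.00 (0.0491). The last of these turned to -0.16 after median-of-ratios scaling. LONP1 was at 8.53, 10.9 and 11.3 FPKM in GFP replicates 1, 2 and 3, and at 17.9, 14.6 and 51.8 in PANX1 replicates 1, 2 and 3. As for the pair, replicate 3 stood apart and replicate 2 was lowest among the PANX1 libraries.

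Of the cristae list, 2 of 20 were in the table, both with a higher mean, and 1 was called, C19orf70, a subunit of the MICOS complex that shapes crista junctions (log2 ratio 1.69, limma adjusted p = 0.0157). Its FPKM was 7.79, 9.72 and 14.2 in GFP replicates 1, 2 and 3, and 18.3, 22.1 and 61.9 in PANX1 replicates 1, 2 and 3, so that here replicate 1 was the lowest PANX1 library. The mitochondrial AAA+ ATPases and proteases had 2 of 14 in the table, and both were called higher, against 33.5% of the table. They were LONP1, itself an AAA+ enzyme and already counted in the nucleoid list, and CLPP. The latter is the peptidase that works with an AAA+ unfoldase (log2 ratio 1.35, limma adjusted p = 0.0315).

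Other AAA+ ATPases had 5 of 40 in the table, 3 with a higher and 2 with a lower mean. RUVBL2, a subunit of chromatin remodelling complexes, was the only one called (log2 ratio 1.44, limma adjusted p = 0.0247). The 2 genes with a lower mean, named after their values were seen, were of the same ATAD naming family but are nuclear proteins. ATAD2, a chromatin-bound bromodomain protein, was at 62.9, 59.6 and 59.9 FPKM in GFP replicates 1, 2 and 3, and at 42.4, 47.6 and 26.4 in PANX1 replicates 1, 2 and 3. ATAD5, which unloads the PCNA clamp from DNA, was at 13.03, 11.97 and 11.4 in GFP replicates 1, 2 and 3, and at 8.37, 8.22 and 4.16 in PANX1 replicates 1, 2 and 3. In both, PANX1 replicate 3 was again the farthest from the GFP libraries, below them. Their log2 ratios were -0.65 and -0.81, neither was called (limma adjusted p of 0.102 and 0.136), and their transcripts held 39.0% and 37.5% GC.

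Cholesterol import and steroid synthesis, a process ATAD3A is known for, had 3 of 29 genes in the table, all 3 with a higher mean. FDX1L, a mitochondrial ferredoxin, was called (log2 ratio 1.96, limma adjusted p = 0.0346), with 2.32, 2.60 and 2.69 FPKM in GFP replicates 1, 2 and 3, and 5.88, 4.42 and 19.3 in PANX1 replicates 1, 2 and 3. These values lay near those of ATAD3A in each library. It is known for iron-sulfur cluster and heme synthesis rather than for cholesterol transport. In fission, fusion and mitophagy, 2 of 21 were in the table, both with a higher mean, and FIS1, an outer membrane protein of mitochondrial fission, was called (log2 ratio 1.36, limma adjusted p = 0.0298). Of the import channel and chaperone list 1 of 16 was in the table, TOMM40, the pore of the outer membrane, with a log2 ratio of 1.05 that was not called (limma adjusted p = 0.0643) and turned to -0.17 after median-of-ratios scaling.

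**Figure D5:**
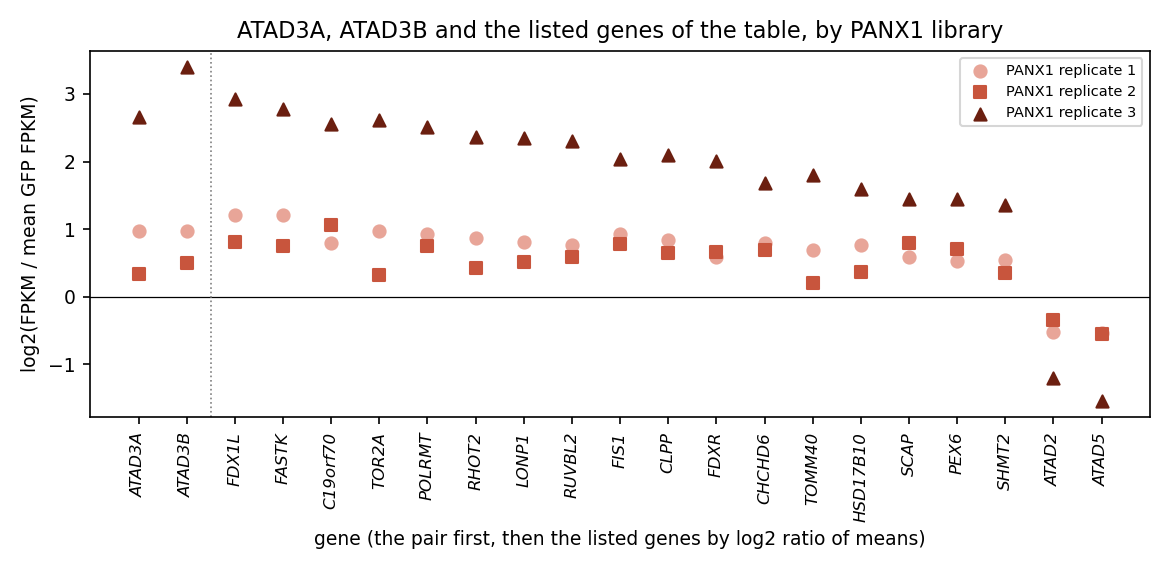
Log2 of FPKM over the mean GFP FPKM in PANX1 replicates 1, 2 and 3 (points) for ATAD3A and ATAD3B and the 19 listed genes of the table, ordered by log2 ratio of the means. As deposited 17 listed genes lie above 0 and ATAD2 and ATAD5 below it, with replicate 3 farthest from 0 throughout, while after median-of-ratios scaling 12 are higher and 7 lower.

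The genes whose pattern was most like that of each paralog were found by Pearson r over the log2 FPKM of the 6 libraries, among 1266 genes above 0 in all of them. Since the table was chosen on the same contrast and the points share their libraries, high values were common, with a median r of 0.950 to ATAD3A and 0.927 to ATAD3B. The nearest to ATAD3A were MED15, a Mediator subunit, and RECQL4, a DNA helicase, both with r = 0.999. They were followed by SPNS1, a lysosomal lipid transporter, C1orf35 and MYBL2, a transcription factor of the cell cycle, each with r = 0.998. The nearest to ATAD3B were NCLN (nicalin) of the endoplasmic reticulum and SCAF1, a splicing-associated factor, both with r = 0.998. They were followed by DDX54, an RNA helicase, the entry MIR1909,REXO1 that holds an RNA exonuclease, and PPP1R12C, a regulatory subunit of myosin phosphatase, each with r = 0.997. The paralogs were less like each other, with r = 0.977. By this measure ATAD3B ranked 321 for ATAD3A, and ATAD3A ranked 183 for ATAD3B.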

How the data were processed

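RNA was poly(A)-selected, made into Illumina TruSeq libraries and sequenced on a HiSeq2000. Per the submitters' notes and the study's methods, reads were trimmed with cutadapt 1.7.1 and aligned to hg19 with TopHat2 2.0.13, Bowtie2 2.2.3 and SAMtools 1.0. The authors deposited FPKM values from Cufflinks 2.2.1 for 1273 genes, and these are normalized for library size and length. The table holds no read counts. The read totals of the libraries that the study's methods state were not used. Genes outside the table were not analysed here.

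Columns were assigned to groups and replicate numbers from the titles of the samples. Log2 ratios are of mean FPKM with no pseudocount. The whole table was fitted with limma 3.58.1 in R 4.3.3 (lmFit, eBayes with a trend) on log2(FPKM + 1), all 6 libraries, without a block, and p-values were adjusted over 1273 genes (Benjamini-Hochberg, threshold 0.05). The fit was tested on simulated data. Loci are those of the table with 1 added to each start, and 32 entries name more than 1 gene. Transcripts, GC content (1154 genes matched by symbol) and sequences came from GENCODE v44lift37 and GRCh37. The GC correction removed, library by library, the linear trend with GC content of log2 values centred on each gene's mean. It took the median of annotated protein-coding genes, 49.1% GC, as the point left unchanged. The table's median is 61.0%, so the correction also moved the level of the table. The median limma change was 0.89 without it and 0.18 with it.

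The members and lists were chosen with earlier results of these data known. Named were the pair, PANX1, genes within 500 kb, the 5 genes most like each member, and listed genes called in limma (where none was called, the highest and lowest). Protein sequences were not used here. Alternatives were pseudocounts of 0.1 and 0.01, a mean FPKM of at least 1, no trend, blocks by replicate number, scaling, the GC correction and leaving out each library. Stretch counts in protein-coding transcripts, and overlap after scaling with 1 library left out or in the neighbours and listed genes, were added after seeing the data.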

Additional observations from a re-analysis of the deposited data

How the results depend on the processing

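The log2 ratios of both members stayed above 0 under each alternative run. That of ATAD3A was 1.67 as deposited, 0.31 with median-of-ratios scaling, 0.99 from group medians, and 0.68 to 2.05 when 1 library was left out. That of ATAD3B was 2.21, 1.00 from group medians, 0.72 with scaling, and 0.75 to 2.64 when 1 library was left out. The limma change of ATAD3A, not called as reported, was called with pseudocounts of 0.1 (1.30) and 0.01 (1.32), and ran from 0.52 to 1.56 when 1 library was left out. The limma change of ATAD3B lost its call without a trend (1.10), with scaling (0.38) and with the GC correction (0.30), and ran from 0.41 to 1.51 when 1 library was left out. The difference in the log2 ratio of ATAD3A to ATAD3B ran from -0.51 to -0.11 when 1 library was left out, and without GFP replicate 2 (-0.51) or PANX1 replicate 1 (-0.48) it was larger than the SD of either group.

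Calls in the table were less stable. Against 426 genes called higher in limma, there were 0 without a trend (770 at an unadjusted p under 0.05), 0 with scaling (145), 9 with the GC correction, and 8 to 994 when 1 library was left out, with 8, 14 and 51 without GFP replicates 1, 2 and 3, and 716 and 994 without PANX1 replicates 2 and 3. Against 9 called lower, there were 22 and 20 with pseudocounts of 0.1 and 0.01, 4 with a mean FPKM of at least 1, 0 without a trend (54 unadjusted), 0 with scaling (171), 0 with the GC correction (66), and 0 to 146 when 1 library was left out. Of the listed genes, 8 were called in either direction, 0 without a trend, with scaling or with the GC correction, and 0 to 18 when 1 library was left out. Genes higher with no overlap between the groups numbered 1044, 210 with scaling, and 1044 to 1091 when 1 library was left out. The share of stretches found in 1 paralog alone was 82.5% for ATAD3A and 89.8% for ATAD3B at 100 bases, 75.8% and 86.1% at 75, and 63.6% and 80.4% at 50. The cause of the other shifts was not tested.

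The titles number the libraries 1 to 3 in both groups, but the deviations of same-numbered libraries from their group means correlated at 0.42, -0.36 and 0.14 across genes. The study's methods speak of matching replicates without saying what they share, and not every pair of libraries deviated together, so they were treated as sharing only a number. A replicate block by the title numbers left the members' calls as they were (1.12 for ATAD3A and 1.10 for ATAD3B), with 581 genes higher, 33 lower and 12 of the listed genes called. By the numbers in the sample descriptions, GFP replicate 1 and PANX1 replicate 3 have no partner, so a replicate block by them rests on 2 pairs and takes nothing from either of those libraries. Its effect cannot be told apart from leaving both out. This fit called ATAD3A (0.49), 1005 genes higher, 140 lower and 18 of the listed genes. With the GC correction and the block by title numbers ATAD3B was not called (0.30), and 66 genes were higher and 1 of the listed genes was called. FPKM keep no counts per gene, so no counting error could be given for ATAD3B at about 1 FPKM.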
